A study of Mus musculus with 9 samples.

Results

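The Cyp4a genes encode cytochrome P450 enzymes that hydroxylate the last carbon (the omega carbon) of medium- and long-chain fatty acids. The 6 genes described here, Cyp4a10, Cyp4a14, Cyp4a31, Cyp4a32, Cyp4a12a and Cyp4a12b, were taken by symbol from a table of 23420 genes, and all 6 were found in it. RNA was sequenced from kidney cortex of male C57/BL6 mice kept on chow under a 12 h light and 12 h dark cycle. The Fed group (5 mice) ate ad libitum, and the Fasted group (4 mice) had no food for 16 h before sacrifice. Each library came from about 50 mg of cortex of 1 mouse. The labels give no age, genotype beyond the strain, litter, batch or time of day at sacrifice.

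Omega-hydroxylation is the entry to a side route of fatty acid oxidation. The hydroxylated fatty acid is oxidised to a dicarboxylic acid, activated to its coenzyme A ester and shortened in peroxisomes. Some enzymes of the family, not all alike, also act on arachidonic acid, whose omega-hydroxylated product constricts renal vessels and alters tubular salt transport. In rodents Cyp4a10 and Cyp4a14 are textbook targets of the fatty acid receptor PPARα, while Cyp4a12a is known as the arachidonic acid omega-hydroxylase of male mice, kept up by androgen. On that background Cyp4a10, Cyp4a14, Cyp4a31 and Cyp4a32 are grouped below as the fasting-responsive copies (4 genes) and Cyp4a12a and Cyp4a12b as the androgen-dependent copies (2 genes). The names are those of the grouping and not of a result: neither androgen nor PPARα was manipulated in this study.

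The 6 genes lie in 1 cluster on chromosome 4 (GRCm38, chr4:115299046-115621602), in the order Cyp4a12a, Cyp4a12b, Cyp4a14, Cyp4a10, Cyp4a31 and Cyp4a32, with Cyp4a14 on the minus strand and the others on the plus strand. How far the copies can be told apart bears on every value below, since a read from a stretch that copies share cannot be assigned to 1 of them. Over the coding sequence of the GENCODE M21 transcripts, Cyp4a12a and Cyp4a12b differed at 23 of 1524 bases (98.49% identity) and shared an unbroken run of 342 bases. Cyp4a10 was 97.18% identical to Cyp4a32 and 96.59% to Cyp4a31, and Cyp4a31 was 96.01% identical to Cyp4a32. Cyp4a14 stood apart, at 75.02% to 75.94% identity with every other copy. Identity between the Cyp4a10, Cyp4a31 and Cyp4a32 set and the Cyp4a12 pair lay between 79.59% and 80.18%.

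The loop that holds the haem iron shows how close the copies are. It is printed as coding sequence, 5′ to 3′, from the plus strand for 5 genes and the minus strand for Cyp4a14. The 60 bases join exons 11 and 12 (coding positions 1330 to 1389 of Cyp4a10, from the A of the start codon, chr4:115529487-115532558 with the intron). Capitals mark bases that differ from Cyp4a10.
Cyp4a10: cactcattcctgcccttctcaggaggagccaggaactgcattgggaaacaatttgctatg
Cyp4a14: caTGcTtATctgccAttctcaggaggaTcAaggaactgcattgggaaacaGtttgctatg
Cyp4a31: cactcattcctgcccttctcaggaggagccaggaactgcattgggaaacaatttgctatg
Cyp4a32: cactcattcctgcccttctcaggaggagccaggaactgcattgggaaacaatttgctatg
Cyp4a12a: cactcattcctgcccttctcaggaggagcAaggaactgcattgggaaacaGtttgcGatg
Cyp4a12b: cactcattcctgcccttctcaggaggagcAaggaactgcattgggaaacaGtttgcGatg
Cyp4a10, Cyp4a31 and Cyp4a32 were identical over these 60 bases, and so were Cyp4a12a and Cyp4a12b, which differed from Cyp4a10 at 3 positions. Cyp4a14 differed at 9 positions. A read from Cyp4a10, Cyp4a31 or Cyp4a32 that lies within this stretch could be given to any of these 3 genes, and one from Cyp4a12a or Cyp4a12b to either of that pair.

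A second stretch of 60 bases joins exons 3 and 4 (coding positions 343 to 402 of Cyp4a10, chr4:115520260-115521090 with the intron), and is shown with the same use of capitals. Within the coding sequence, it was chosen where the least different pair among Cyp4a10, Cyp4a31 and Cyp4a32 differed most. Differences between Cyp4a12a and Cyp4a12b served only to break ties.
Cyp4a10: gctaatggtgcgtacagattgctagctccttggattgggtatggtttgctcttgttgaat
Cyp4a14: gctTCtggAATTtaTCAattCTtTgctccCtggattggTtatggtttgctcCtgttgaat
Cyp4a31: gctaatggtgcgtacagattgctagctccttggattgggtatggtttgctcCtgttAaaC
Cyp4a32: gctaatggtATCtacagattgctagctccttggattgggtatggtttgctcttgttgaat
Cyp4a12a: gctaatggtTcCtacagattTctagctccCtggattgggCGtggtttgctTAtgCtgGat
Cyp4a12b: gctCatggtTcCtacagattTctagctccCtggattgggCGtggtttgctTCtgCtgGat
Here Cyp4a31 and Cyp4a32 each differed from Cyp4a10 at 3 positions and from each other at 6. Cyp4a12a and Cyp4a12b differed from each other at 2 positions, and Cyp4a14 differed from Cyp4a10 at 15.

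Every stretch of a fixed length in each reference transcript was searched for in the transcripts of all other genes. At 75 bases, 100% of the stretches of Cyp4a14 were found in no other gene. That share was 86.1% for Cyp4a31, 80.9% for Cyp4a10, 69.6% for Cyp4a32, 59.2% for Cyp4a12a and 58.7% for Cyp4a12b. Cyp4a12a and Cyp4a12b each shared about 41% of their stretches with the other (40.8% and 41.3%). Of the stretches of Cyp4a32, 20.7% were also in Cyp4a10. The read length and the handling of reads that match several genes are not given in the sources used here, so the value of Cyp4a14 is the 1 least open to sharing, and those of Cyp4a32, Cyp4a12a and Cyp4a12b are uncertain as values of single genes. The annotation used for counting is not given either, so the stretches are those of the GENCODE models, and that of Cyp4a32 holds 1530 bases, 1527 of them coding.

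**Figure D1:**
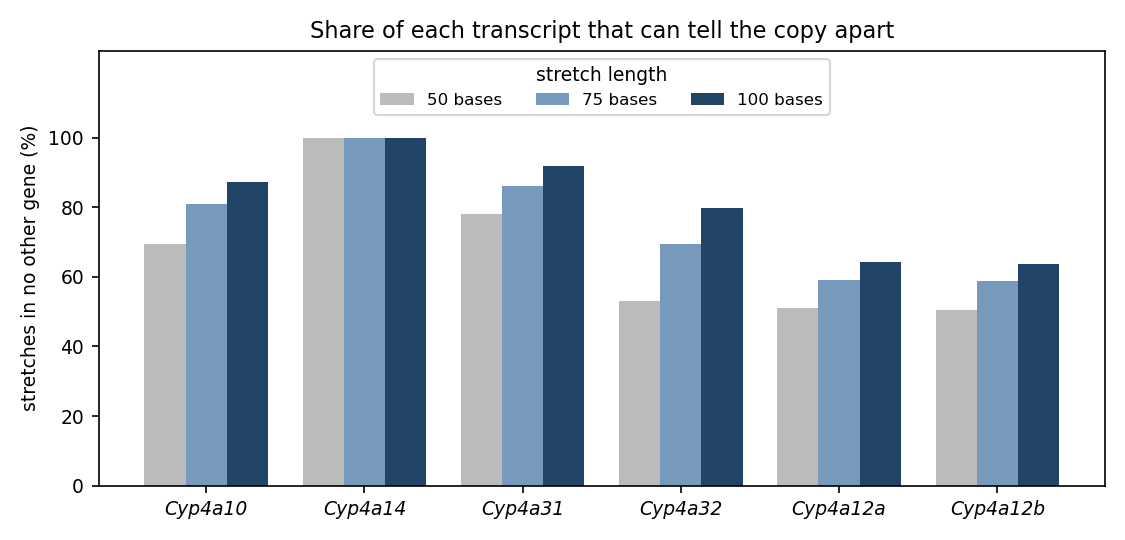
Share of stretches of 50, 75 or 100 bases (y axis, percent) of each Cyp4a reference transcript (x axis) that occur in the transcripts of no other gene. Cyp4a14 is at 99.8% to 100%, while the Cyp4a12 pair lies between 50.6% and 64.2%.

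The libraries held 18902645 to 32469467 counted reads, recovered from the deposited values, so 1 read was worth 0.744 to 1.32 normalized counts. The ribosomal RNA entry Rn45s took 5.53% of the reads of Fed 3 and 2.36% of those of Fasted 1, against 0.513% to 1.38% in the other libraries. The test covered the 15098 genes whose mean over all libraries reached 10 normalized counts. Of these, 863 (5.72%) were higher and 793 (5.25%) lower in fasted cortex at an adjusted p under 0.05, 1656 in all. That total was 1004 without Fed 1, 1084 without Fasted 1, 1062 without Fasted 3 and 861 without Fasted 4. Markers of the proximal tubule, the part of the nephron where Cyp4a enzymes are known to be made, summed to 458600 to 646800 normalized counts in fed and 393800 to 466900 in fasted cortex. Among its 8 markers Slc34a1 was lower (log2 change -0.58, adjusted p = 0.0377) and Slc13a3 higher (0.41, adjusted p = 0.0237). In whole cortex, fewer cells of a type and less RNA per cell cannot be told apart.

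All 6 members passed the filter on low values. After the fast, 3 of the 6 rose (Cyp4a14, Cyp4a10 and Cyp4a31) and none fell, beside 5.72% of all tested genes that rose. The median log2 change (of normalized count plus 1, fasted over fed) was 1.19 over the members and 0.00 over all tested genes. The same 3 copies were the ones whose fed and fasted values did not overlap, beside 7.62% of all tested genes that were higher without overlap. Changes below carry the standard error (SE) and the p of limma over all tested genes with Benjamini-Hochberg adjustment, and levels are normalized counts, as mean ± SD over the mice of a group (n = 5 for fed, n = 4 for fasted).

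Cyp4a14 had the largest change of the family. Fed 1 to Fed 4 had 1110, 1070, 1130 and 1379 normalized counts and Fed 5 had 15244, while Fasted 1 to Fasted 4 had 50033, 55391, 46981 and 76259. Every fasted library lay above every fed one, and Fed 5 stood apart from the other fed mice. Group means were 3986 ± 6294 (fed) and 57166 ± 13195 (fasted). The log2 change was 4.85 with a 95% interval of 3.36 to 6.33 (SE 0.68, adjusted p = 0.00157). Only 1 of the 15098 genes had a larger log2 increase. Without Fed 5 the log2 change was 5.59 (adjusted p = 3.08e-08), the fed mean was 1172 ± 140, and the ratio of the group means went from 14.3 to 48.8. On the recovered reads, edgeR's quasi-likelihood test gave a log2 change of 3.84 (adjusted p = 0.0155) and DESeq2 one of 3.84 (adjusted p = 0.00279), both lower than that of limma.

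Cyp4a10, a fatty acid omega-hydroxylase known for lauric acid as a substrate, also rose. The fed libraries 1 to 5 had 3276, 3301, 2498, 4166 and 10391 normalized counts, and Fasted 1 to Fasted 4 had 25317, 27727, 27356 and 32120. The groups did not overlap, and Fed 5 was again the highest fed library. Group means were 4726 ± 3221 (fed) and 28130 ± 2863 (fasted). The log2 change was 2.77 with a 95% interval of 2.06 to 3.48 (SE 0.33, adjusted p = 0.000583). By size of the increase it ranked 10 among the tested genes.

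Cyp4a31, a near copy of Cyp4a10, rose less. Its fed values, from Fed 1 to Fed 5, were 2196, 2487, 3130, 2615 and 5811 normalized counts, and Fasted 1 to Fasted 4 had 8918, 8670, 9961 and 9648. No fasted value reached down to a fed one, and the fasted mice lay close together. Group means were 3248 ± 1472 (fed) and 9299 ± 606 (fasted). The log2 change was 1.61 with a 95% interval of 1.11 to 2.11 (SE 0.23, adjusted p = 0.00168), which ranked 70 by size of the increase.

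Cyp4a32 shares its sequence most closely with Cyp4a10 but did not pass the test. In fed cortex its 5 libraries had 272, 201, 179, 330 and 257 normalized counts, and Fasted 1 to Fasted 4 had 286, 262, 346 and 314. The fasted values all lay within or just above the fed range. The mean was 248 ± 59.9 in fed and 302 ± 36.2 in fasted cortex, a log2 change of 0.31 (SE 0.17, adjusted p = 0.264) whose 95% interval ran from -0.06 to 0.68. That interval lies below those of Cyp4a10, Cyp4a14 and Cyp4a31.

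Cyp4a12a, the male arachidonic acid omega-hydroxylase, had nearly the same level in both groups. The fed libraries 1 to 5 had 519, 506, 547, 384 and 556 normalized counts, and Fasted 1 to Fasted 4 had 507, 636, 586 and 396. The groups overlapped, and each held 1 low library, Fed 4 and Fasted 4. The mean was 503 ± 69.1 in fed and 531 ± 105 in fasted cortex, a log2 change of 0.07 (SE 0.15, adjusted p = 0.805, 95% interval -0.25 to 0.39). Its sign was not fixed, at -0.02 without Fed 4 and -0.02 without Fasted 2.

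Cyp4a12b, its close copy, was spread more widely in fed cortex. Its fed values, from Fed 1 to Fed 5, were 194, 151, 299, 130 and 383 normalized counts, and Fasted 1 to Fasted 4 had 384, 360, 399 and 315. Fed 5 lay within the fasted range, while the other fed libraries lay below it. The mean was 231 ± 107 in fed and 364 ± 36.8 in fasted cortex, a log2 change of 0.77 (SE 0.28, 95% interval 0.16 to 1.38). With an adjusted p of 0.100 in limma (unadjusted 0.0175) it did not pass the threshold. Without Fed 5 it did (0.98, adjusted p = 0.0183), and this was the only one of 18 other settings in which it passed, over which the adjusted p ran from 0.0183 to 0.194.

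**Figure D2:**
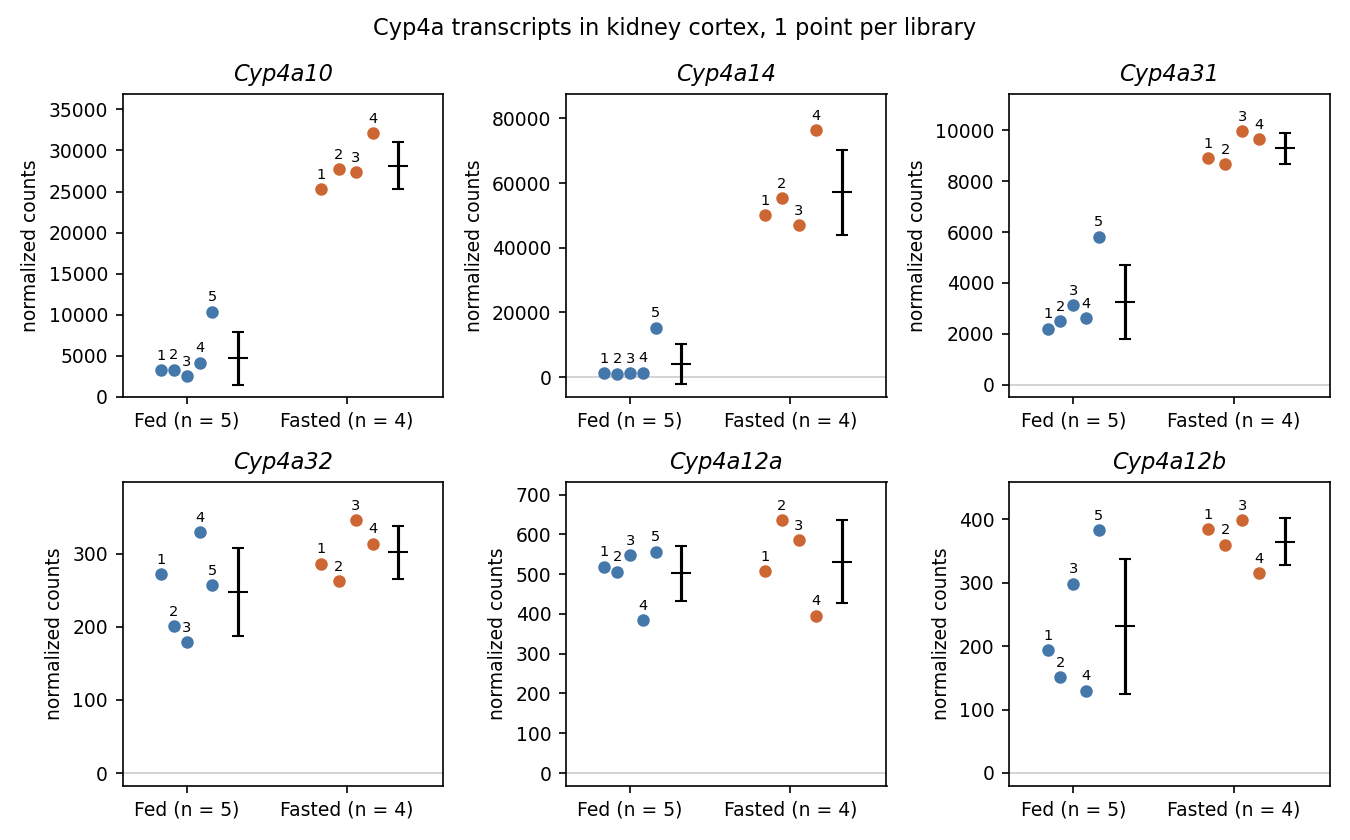
Normalized counts (y axis, 1 scale per panel) of each Cyp4a gene in fed (blue, n = 5) and fasted (orange, n = 4) kidney cortex, with the library number above each point and the group mean ± SD in black. The groups are separate for Cyp4a10, Cyp4a14 and Cyp4a31, with Fed 5 the highest fed library in each, and overlap for the other 3 genes.

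**Figure D3:**
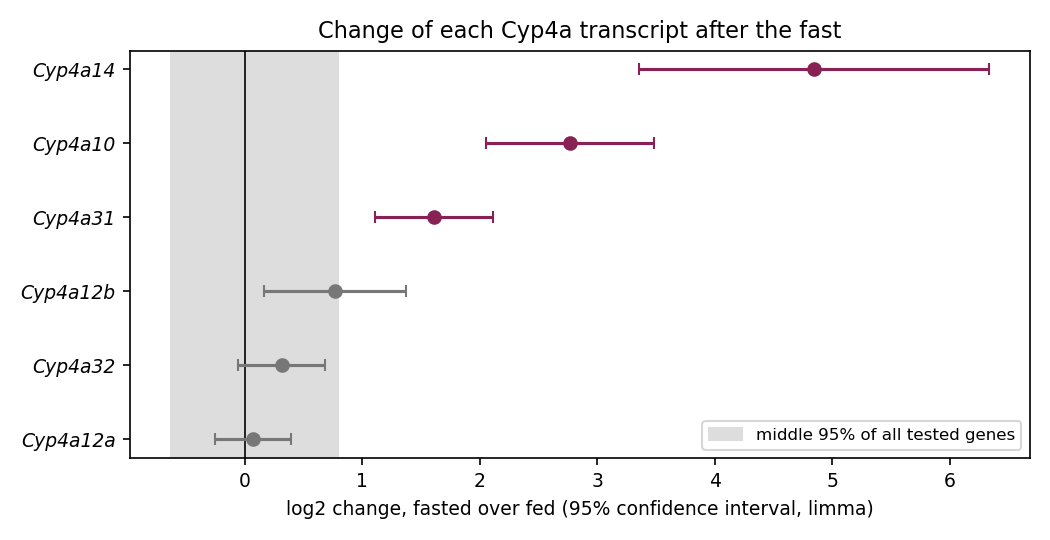
Log2 change, fasted over fed (x axis), of each Cyp4a gene (y axis) with its 95% confidence interval from limma, purple where the adjusted p is under 0.05 and grey otherwise; the grey band holds the middle 95% of all tested genes (-0.63 to 0.80). Only the intervals of Cyp4a14, Cyp4a10 and Cyp4a31 lie wholly above that band.

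Whether the copies differed in their change was tested directly, on the log2 ratio of each pair of copies within a library (exact permutation test, two-sided, adjusted over the 15 pairs). The smallest p this design allows is 0.0159. Of the 15 pairs, 12 passed, all with adjusted p = 0.0198, and these were all the pairs that hold Cyp4a10, Cyp4a14 or Cyp4a31. Counts of Cyp4a10 exceeded those of Cyp4a14 by 1.07 ± 0.93 log2 units on average in fed cortex and lay below them in all 4 fasted libraries. Their log2 ratio shifted by -2.08 (95% permutation interval -2.80 to -0.45). Cyp4a14 therefore moved more than Cyp4a10, and Cyp4a10 moved more than Cyp4a31 (shift of their log2 ratio 1.16, interval 0.73 to 1.83).

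The near-identical Cyp4a10 and Cyp4a32 did not move alike. Their log2 ratio shifted by 2.46 (interval 1.34 to 3.07, exact adjusted p = 0.0198), and that of Cyp4a31 to Cyp4a32 by 1.30 (interval 0.46 to 2.0, exact adjusted p = 0.0198). Against the androgen-dependent copies, the log2 ratio of Cyp4a14 to Cyp4a12a shifted by 4.78 (interval 1.85 to 6.49) and that of Cyp4a31 to Cyp4a12b by 0.84 (interval 0.32 to 1.34), the largest and the smallest shift between the 3 copies that rose and the other 3. The 3 pairs that did not pass were those among Cyp4a32, Cyp4a12a and Cyp4a12b. The log2 ratio of Cyp4a32 to Cyp4a12a shifted by 0.24 (interval -0.53 to 0.92, exact adjusted p = 0.460) and that of Cyp4a32 to Cyp4a12b by -0.46 (interval -1.54 to 0.55, exact adjusted p = 0.374). For Cyp4a12a to Cyp4a12b the shift was -0.70 (interval -1.28 to -0.02, exact p = 0.0476, adjusted p = 0.0549), and without Fed 5 it was -0.87 (adjusted p = 0.0330).

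Levels were compared between the copies as normalized counts per kilobase of exon. In fed cortex the order was Cyp4a10 (2241 ± 1527), Cyp4a14 (1533 ± 2420), Cyp4a31 (1294 ± 587), Cyp4a12a (207 ± 28.5), Cyp4a32 (161 ± 39.0) and Cyp4a12b (96.5 ± 44.6). Of the neighbours in that order, only Cyp4a31 and Cyp4a12a did not overlap. The place of Cyp4a14 rested on Fed 5: in the other 4 fed libraries Cyp4a31 lay above Cyp4a14. In fasted cortex the order was Cyp4a14 (21978 ± 5073), Cyp4a10 (13338 ± 1358), Cyp4a31 (3706 ± 241), Cyp4a12a (219 ± 43.3), Cyp4a32 (197 ± 23.5) and Cyp4a12b (152 ± 15.4). All neighbours were separate there except Cyp4a12a and Cyp4a32. The male copy Cyp4a12a was thus below each of the 3 copies that rose, also in every fed library.

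The summed level of the 4 fasting-responsive copies was 6854, 7059, 6937, 8489 and 31702 normalized counts in Fed 1 to Fed 5, and 84555, 92050, 84645 and 118340 in Fasted 1 to Fasted 4. The means were 12208 ± 10918 and 94898 ± 16018, a ratio of 7.77, and without Fed 5 the ratio was 12.9. The 2 androgen-dependent copies summed to 712, 657, 846, 514 and 939 in the fed libraries and to 891, 996, 985 and 710 in the fasted ones, with means of 734 ± 165 and 896 ± 132 and a ratio of 1.22. The fasting-responsive sums did not overlap between the groups and the androgen-dependent sums did. All 6 copies together went from 12942 ± 11027 to 95793 ± 15904, a ratio of 7.40, or 11.9 without Fed 5. These sums are descriptions, with no test. They made up 0.0301% to 0.0365% of the reads in Fed 1 to Fed 4, 0.142% in Fed 5 and 0.343% to 0.493% in the fasted libraries.

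The make-up of the sum changed with its size. Cyp4a14 held 13.9% to 15.3% of it in Fed 1 to Fed 4, 46.7% in Fed 5 and 54.9% to 64.1% in the fasted libraries. Cyp4a10 went from 39.3% ± 6.79 of the sum in fed to 29.6% ± 2.03 in fasted cortex, and Cyp4a31 from 29.7% ± 8.05 to 9.87% ± 1.51. The androgen-dependent copies went from 7.48% ± 3.19 to 0.965% ± 0.250 of the sum, while their own summed level had a higher mean in fasted cortex. A larger total lowers the share of any copy that does not rise with it.

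**Figure D4:**
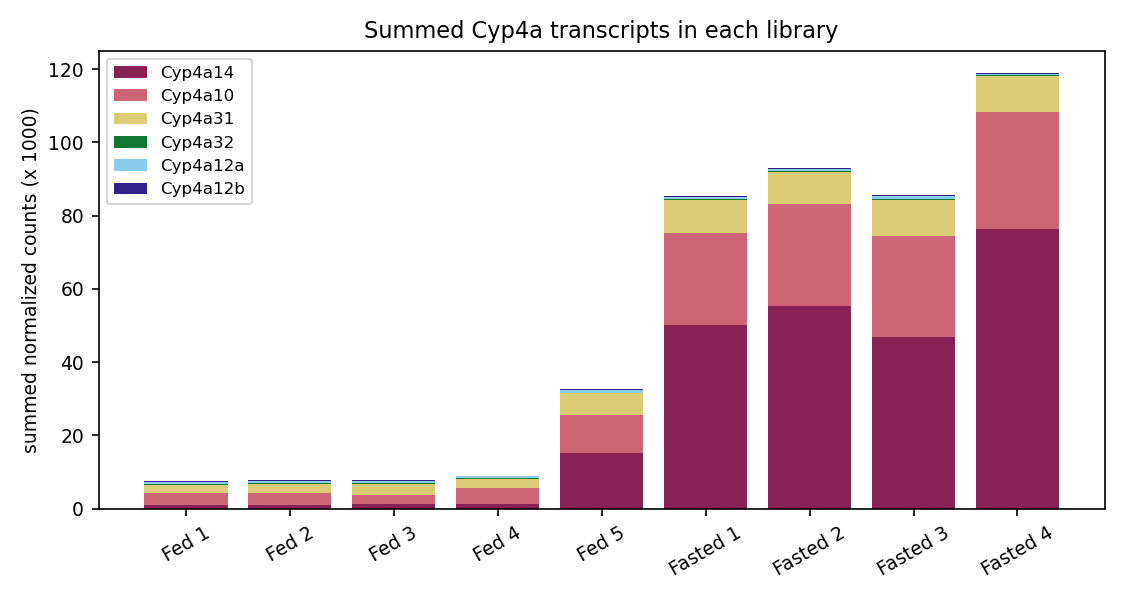
Summed normalized counts of the 6 Cyp4a genes (y axis, in units of 1000) in each library (x axis), stacked by gene. Fed 1 to Fed 4 hold 7566 to 9004, Fed 5 holds 32641 and the fasted libraries hold 85446 to 119051, and Cyp4a14 is the largest block in Fed 5 and in every fasted library.

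Fed 5 lay between the groups in the 3 copies that rose, and other values moved with it. Of its own group it had the lowest sum of proximal tubule markers (458640 normalized counts), of straight proximal tubule markers (38714, the other fed libraries 75883 to 83263) and of the androgen and male-biased genes (312050, the others 425290 to 528280). Fasted 4, which had the most Cyp4a14, likewise had the lowest fasted sum of straight tubule markers (39300) and of male-biased genes (312000). None of the 4 straight tubule markers passed the test between the groups. Slc7a13 and Cyp7b1 are in both of these lists. The sum of the female-biased kidney genes was highest of its group in the same libraries, Fed 5 (3825, the other fed libraries 1843 to 3624) and Fasted 4 (4787, the others 1046 to 2153). Of these genes only Slc7a12 (1256) had its highest fed value in Fed 5. Prlr was at 2224 there and 2257 in Fed 4, and Abcc3 and Akr1c18 were not highest in Fed 5 either. Fed 5 also had the lowest fed sum of the P450 electron donors (30838, the others 40087 to 44526), of the other CYP4 genes (44209, the others 53824 to 70525) and of the other arachidonic acid genes (47998, the others 57233 to 71192). The sums of the last 2 lists were mostly Cyp4b1 (42742 in Fed 5) and Cyp2j5 (33873 in Fed 5). Other members were not low in Fed 5. Cyp4f18 had its highest fed value there (22.9), and Ptgs1 (870) lay above Fed 1, Fed 3 and Fed 4. The proximal tubule sum in Fed 5 was mostly Lrp2 (223640) and Slc34a1 (104450), and the male-biased sum mostly Kap (251730). Among the proximal tubule markers, Aqp1 instead had its highest fed value in Fed 5 (27120), and Cubn and Slc13a3 were not lowest there. The part of the differences in all these sums in the Cyp4a values was not tested.

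Markers of other organs were also read. The sum of 10 hepatocyte markers ran from 2713 to 21060 in fed and from 8380 to 16890 in fasted cortex, and was 3016 in Fed 5, the lowest but one. The log2 changes of those 10 had a median of 1.49, and only Fga, a fibrinogen chain, passed (1.53, adjusted p = 0.00168). The members did not move together in Fed 5. Alb, the main plasma protein of liver, was at 251, 10091, 4321, 2524 and 402 normalized counts in Fed 1 to Fed 5 and at 1849 to 7396 in the fasted libraries. Serpina1a, another secreted liver protein, was highest of the fed libraries in Fed 5 (501, the others 172 to 315), above Fasted 1 (436) and Fasted 3 (411). In the 6 adipocyte markers, the sum was 514 to 792 in fed and 790 to 1117 in fasted cortex, with Fed 5 the highest fed library. Of these, Fabp4, also made by endothelium, was higher (0.67, adjusted p = 0.00888), as was Plin1, the droplet coat protein of fat cells (3.24, adjusted p = 0.0266). The fasted mean of Plin1 rested on Fasted 2, which had 70.7 normalized counts, while the other fasted libraries had 1.92 to 10.7 and the fed ones 0 to 1.84. The defining fat hormones were near 0, with Adipoq at 0.79 ± 0.49 and 0.92 ± 1.32, Lep at 0.15 ± 0.33 and 0, and Retn at 0.48 ± 0.66 and 0.99 ± 1.27. Of 3 adrenal cortex markers, Cyp11b1 was at 0 in every library and Cyp11a1 at 0.73 ± 0.78 and 0.94 ± 1.32. The third, Star, was at 217 ± 52.5 and 261 ± 25.2 and did not pass (adjusted p = 0.254), with 308 in Fed 5 against 174 to 204 in the other fed libraries. None of the markers of the thick ascending limb (Umod the highest) or the collecting duct (Aqp2 the highest) passed.

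The route that handles the products of omega-hydroxylation was read from a list of 19 genes. Of 18 tested, 11 rose and none fell, with a median log2 change of 0.72, beside 5.72% of all tested genes that rose. Ehhadh, Hsd17b4 and Acaa1b are peroxisomal oxidation enzymes. Ehhadh, the bifunctional hydratase and dehydrogenase that dicarboxylic acids depend on, was at 20438 ± 3768 in fed and 76624 ± 9161 in fasted cortex, a rise of 1.92 on the log2 scale (SE 0.13, adjusted p = 3.04e-05). On the log2 scale Hsd17b4, another bifunctional enzyme, rose by 0.67 (adjusted p = 0.000604) and the thiolase Acaa1b by 1.61 (adjusted p = 0.000308). The importer Abcd3 had a log2 change of 1.01 (adjusted p = 0.000219), the acyl-CoA synthetase Acsl1 one of 1.11 (adjusted p = 0.000154) and the peroxisome division gene Pex11a one of 1.14 (adjusted p = 0.00667).

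Enzymes that release the shortened chains from the peroxisome rose as well. On the log2 scale the thioesterases Acot3, Acot8 and Acot4 rose by 1.95 (adjusted p = 0.000640), 0.77 (adjusted p = 0.00166) and 0.33 (adjusted p = 0.0200), and the carnitine octanoyltransferase Crot by 0.84 (adjusted p = 0.00314). The alcohol and aldehyde dehydrogenases Adh1, Adh5, Aldh3a2 and Aldh9a1, which turn the hydroxyl group into the second acid, did not pass, at log2 changes of -0.19, -0.01, 0.20 and 0.21. Slc27a2, a very-long-chain acyl-CoA synthetase and the one with the highest mean count of the list, did not pass either (112680 ± 6973 and 136580 ± 2607, log2 change 0.28, adjusted p = 0.101). In Fed 5 the summed level of the list was 268450 normalized counts, within the 254130 to 283750 of the other fed libraries, while the fasted libraries held 435850 to 499050. Ehhadh itself had its highest fed value in Fed 5 (26814, the others 16933 to 20097).

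**Figure D5:**
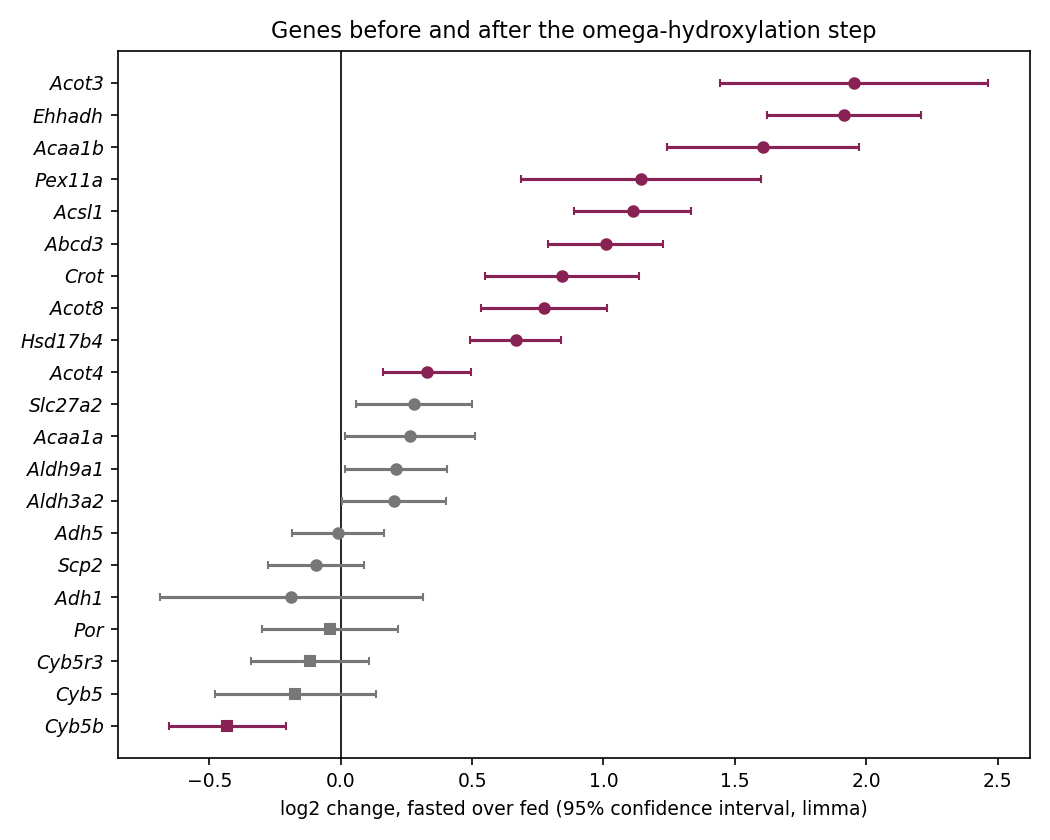
Log2 change, fasted over fed (x axis), with the 95% confidence interval from limma, of tested genes of the dicarboxylic acid route (circles, those reported here) and of the electron donors of P450 enzymes (squares); purple marks an adjusted p under 0.05. Circles run from -0.19 (Adh1) to 1.95 (Acot3), and the estimates of all 4 electron donors lie below 0.

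Of the 4 genes that pass electrons to P450 enzymes, none was called higher and 1 lower, beside 5.72% and 5.25% of all tested genes, so this small list is not set apart by its count. Por, the microsomal reductase, was at 6856 ± 892 and 6685 ± 1005 (log2 change -0.04, adjusted p = 0.866). Cyb5b, the cytochrome b5 of the outer mitochondrial membrane and the one with the highest mean count, was the one called lower (log2 change -0.43, SE 0.10, adjusted p = 0.0211). The microsomal cytochrome b5, listed as Cyb5, had a log2 change of -0.17 and its reductase Cyb5r3 one of -0.12, and neither passed.

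Among 14 other genes of the CYP4 family, 8 were tested and 1 rose, beside 5.72% of all tested genes. It was Cyp4f18, a hydroxylase of leukotrienes, which went from 19.3 ± 2.39 to 35.2 ± 5.31 (log2 change 0.83, adjusted p = 0.0162). Cyp4b1, with the highest mean count of these 14 over all libraries, was at 57280 ± 10129 and 57812 ± 8231 (log2 change 0.02, adjusted p = 0.950). The Cyp4a pseudogenes of the cluster, Cyp4a29-ps and Cyp4a30b-ps, had a mean of at most 0.32 normalized counts in either group.

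Of 9 tested receptors and partners of the PPAR system, none passed, beside the 5.72% of all tested genes that rose and the 5.25% that fell. Ppara, with the highest mean count of the list and the receptor known to drive Cyp4a10 and Cyp4a14, was at 4458, 4490, 4828, 7667 and 5658 normalized counts in Fed 1 to Fed 5 and at 7647, 6385, 7756 and 8646 in Fasted 1 to Fasted 4. Fed 4 lay within the fasted range. Its log2 change was 0.51 (SE 0.15, adjusted p = 0.0554). In Fed 5, with the most Cyp4a14 of the fed libraries, Ppara (5658) was above Fed 1 to Fed 3 (4458 to 4828) and below Fed 4 (7667). The part of Ppara in the Cyp4a values was not tested.

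Of the 9 androgen axis and male-biased kidney genes, the context of the Cyp4a12 pair, 1 was called lower and none higher. Of all tested genes 5.25% were lower and 5.72% higher, and a list this small is not set apart by its count. Odc1, the first enzyme of polyamine synthesis and long known to respond to androgen in mouse kidney, was lower (3869 ± 860 and 1931 ± 648, log2 change -1.03, SE 0.22, adjusted p = 0.0142). Kap, the kidney androgen-regulated protein, with the highest mean count of the list, was at 369300 ± 76404 and 357400 ± 71308 (log2 change -0.04, adjusted p = 0.925). Of 4 female-biased genes none passed, and Prlr, with the highest mean count, was at 1534 ± 656 and 1446 ± 926.

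Of 9 other genes of arachidonic acid release, metabolism and signalling, 2 rose and 1 fell, beside 5.72% and 5.25% of all tested genes. Those that rose were the epoxide hydrolases Ephx2 (log2 change 0.57, adjusted p = 0.00819) and Ephx1 (0.50, adjusted p = 0.00594), which open epoxides of fatty acids. The epoxygenase Cyp2c44 fell (663 ± 83.5 to 469 ± 88.4, log2 change -0.51, adjusted p = 0.0358). Cyp2j5, with the highest mean count of the list, was at 45221 ± 7861 and 38417 ± 4499 and did not pass (adjusted p = 0.331).

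Across the 9 libraries, log2 values of Cyp4a10 and Cyp4a14 had Pearson r = 0.991 (0.958 after each group's mean was taken out), and those of Cyp4a14 and Cyp4a31 r = 0.987 (0.925). These descriptions share the libraries, their 2 groups and Fed 5. Cyp4a10 and Cyp4a12a had r = 0.14, and Cyp4a12a and Cyp4a12b, for all their shared sequence, r = 0.549. Cyp4a12b had a higher r with Cyp4a31 (0.84), Cyp4a14 (0.80) and Cyp4a10 (0.72) than with Cyp4a12a. Cyp4a32 had r = 0.61 with Cyp4a10, 0.54 with Cyp4a14 and 0.48 with Cyp4a31. The correlations therefore did not split along the fasting-responsive and androgen-dependent groups. Among 11111 others with a mean of at least 100, the genes most like Cyp4a14 included Kcnip2 (r = 0.988), AI314180 (0.986), Tacc1 (0.982) and Chp1 (0.978).

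Kcnip2, a subunit that binds potassium channels, had 63.3 to 79.2 in Fed 1 to Fed 4, 257 in Fed 5 and 410 to 755 in the fasted libraries. It shared with Cyp4a14 a fed library between the groups, Fed 5, and so did AI314180, Tacc1 and Chp1. The choice by correlation with Cyp4a14 favours genes that do so. After group means were taken out, the r of Kcnip2 with Cyp4a14 was 0.935. The genes most like Cyp4a12a were Mapkbp1 (r = 0.939), P4ha2 (0.922), U2af1 (0.903), Il34 (0.882) and Gmps (0.877). None of these 5 passed the test between the groups, and without the 2 libraries farthest from the median of Cyp4a12a, Fed 4 and Fasted 4, the r of Mapkbp1 was 0.816 and that of Il34 0.721. These genes and those named for Cyp4a14 are among the highest of 11111 correlations over only 9 libraries. How high the best of so many would be by chance was not tested, so the lists are descriptions.

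In the authors' deposited table, the adjusted p was 1.6e-07 for Cyp4a10, 1.16e-05 for Cyp4a31, 0.0713 for Cyp4a12b, 0.280 for Cyp4a32 and 0.797 for Cyp4a12a. The authors' deposited log2 fold changes were 1.34 for Cyp4a10, 1.06 for Cyp4a31, 0.49 for Cyp4a12b, 0.25 for Cyp4a32 and 0.07 for Cyp4a12a. Those of limma here were 2.77, 1.61, 0.77, 0.31 and 0.07. The 2 sets are not to be read as the same measure, and why they differ was not tested. For Cyp4a14 the authors' deposited table gives a log2 fold change of 0.49 (4.85 in limma here) and a score of 2.998 but leaves the p and adjusted p blank. The authors' deposited table does so for 15 genes, of which 11 were tested here and 4 passed limma. The authors' deposited table of annotated genes names Cyp4a10 and Cyp4a31 and not Cyp4a14, the copy with the largest change. In the authors' deposited table of annotation terms, 31 of 705 terms name a Cyp4a copy, and 15 of these have a Benjamini p under 0.05. One of them in the authors' deposited table is the PPAR signaling pathway, with 23 genes, a 3.70-fold enrichment and a Benjamini p of 1.52e-05.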

How the data were processed

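RNA sequencing libraries of 9 kidney cortex samples were grouped by the treatment in the labels (Fed, n = 5; Fasted, n = 4) and numbered in accession order, which pairs nothing. Per the submitters' processing notes, the tools were FastQC, HTSeq 0.9.1, TopHat2 2.0.9 and DESeq2, and the builds named are mm10 and hg19; how multiply matching reads were counted is not given in the sources used here. Each deposited sample column holds a signal that the authors made by scaling the reads per gene with a factor for that library: 100% of 161194 values above 0 were whole reads within 0.01 reads. The authors' deposited log2 fold change, its score and p-value, and the deposited fold enrichment and p-value of annotation terms, are quoted only as theirs.

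Genes with a mean of at least 10 were tested with limma 3.58.1 (R 4.3.3, trend, log2 of normalized count + 1, two-sided, Benjamini-Hochberg). That scale understates the change of low genes. Pairs of copies were tested with exact permutation tests (scipy 1.17.1), and intervals hold the shifts that this test does not reject. Coding sequences (GENCODE M21, GRCm38) were aligned with MAFFT 7.526. On simulated data with 200 of 15098 genes changed, limma made 196 calls, 4 of them false, and found 92% of the 2-fold and 100% of the 4-fold changes (0 calls where nothing was changed), at an assumed spread. That spread was the same for all genes and no library was made to lie far from its group, as Fed 5 did. The rates therefore do not carry over to the Cyp4a genes. Alternatives were other filters, pseudocounts, TMM, DESeq2 1.42.0, edgeR 4.0.16 and voom from recovered reads, and libraries left out. The members, gene lists, markers and alternatives were chosen with earlier results of these data known. Named genes are the 6 members, those of each list that passed with its member of highest mean, and the 5 genes most correlated with Cyp4a14 and with Cyp4a12a; Por, Cyb5, Cyb5r3, the Adh and Aldh genes, the Cyp4a pseudogenes, Alb, Serpina1a, Star and the marker genes near 0 were added after their values were seen. Some genes that this rule names are left out of the text but stay in the counts. The clustered annotation terms were not used, and 0 sample columns were left unused.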

Additional observations from a re-analysis of the deposited data

Results flagged for a closer look

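In 18 groups of values (each member and each sum, in fed and in fasted cortex), the highest or lowest library was compared with its neighbours, and 6 had a library far from the rest of its group; chance alone gives about 1 in 20 for a single group. The groups are not independent, since they share the libraries and the sums are made of the members, so the count of 6 is not to be set against that share. Of these, 5 were Fed 5. Cyp4a14 had 15243.7 normalized counts in Fed 5 against 1070 to 1379 in the other fed libraries, Cyp4a10 had 10390.9 against 2498 to 4166, and Cyp4a31 had 5810.65 against 2196 to 3130. The summed level of the fasting-responsive copies was 31701.9 in Fed 5 against 6854 to 8489, and that of all 6 copies was 32640.8 against 7566 to 9004. The sixth was Cyp4a12a in Fed 4, at 384.408 normalized counts against 506 to 556 in the other fed libraries, with a gap of 0.71 of the range, at the critical value.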

How the results depend on the processing

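Cyp4a10, Cyp4a14 and Cyp4a31 passed in all 18 alternatives, with log2 changes of 2.57 to 3.10, 3.84 to 5.59 and 1.49 to 1.84. The lowest value of Cyp4a14 came from edgeR and DESeq2 on recovered reads (3.84 in each). Cyp4a32 (0.20 to 0.42) and Cyp4a12a (-0.02 to 0.20) passed in none. Leaving out 1 library at a time gave 0.59 to 0.98 for Cyp4a12b, -0.02 to 0.20 for Cyp4a12a, and 861 to 1959 changed genes of all tested. Leaving out Fed 3 and Fasted 1 together gave 1068. For Cyp4a12a the sign turned without Fed 4 (-0.023846) and without Fasted 2 (-0.024628); the cause was not tested. Without Fed 5, Cyp4a12b passed (0.98007), and so did the pair of Cyp4a12a and Cyp4a12b (-0.87109). DESeq2 called 2377 genes and edgeR 1654. The number of pairs of copies that passed was 12 or 13 without 1 library. The sums kept their direction in every alternative, with log2 differences for the fasting-responsive copies of 3.26 as summed, 3.19 per kilobase of exon and 3.11 per stretch of 75 bases found in no other gene, the last chosen after seeing the data. Of 322 values under alternatives, 313 kept their direction and their side of the threshold or moved less than the set limit. No paired analysis was possible because the labels give no replicate numbers or pairing, and the libraries are numbered in accession order only. Every member had at least 121 reads in every library.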
